A study of Mus musculus with 8 samples.

Results

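Class IIa histone deacetylases and the MEF2 transcription factors they bind are described here by the array probes of Hdac4, Hdac5, Hdac7, Hdac9, Mef2a, Mef2c and Mef2d. The members were chosen by gene name: every probe that is not a control and whose RefSeq accession belongs to one of these genes was taken. That gives 7 of the 20660 genes named on the array, read by 9 probes, since Mef2a and Mef2d have 2 probes each. Skeletal muscle of mice with 1 working copy of Eif6 (Eif6+/-) was compared with muscle of WT littermates. Eif6 encodes a factor that acts in ribosome assembly and in the start of translation. The mice were male C57BL6 animals of 8 to 16 weeks per the methods, and the muscles were gastrocnemius and tibialis anterior (TA). Each of the 8 arrays holds an Eif6+/- sample in Cy5 and a WT sample in Cy3 by the sample labels, with 4 pairs per muscle.

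The design entry of the series states random pairing of mice matched for age, and the methods name labelling with Cy3 alone. No array swaps the dyes, so what the dye adds and what the genotype adds cannot be told apart. All 8 arrays lie on 1 slide and each muscle fills its own line of it, so muscle and place on the slide cannot be told apart either. The same entry counts 4 mutant and 4 WT mice, so both muscles may come from the same animals, but the sources used here do not state whether pairs of the same number do.

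Class IIa deacetylases sit on MEF2 factors at muscle genes and hold those genes down together with corepressors, having little enzyme activity of their own. When calcium-dependent kinases, protein kinase D or AMPK phosphorylate them, 14-3-3 proteins bind them and take them out of the nucleus, which frees MEF2 to work with coactivators. In adult muscle this switch is known for its part in slow fibre genes, the oxidative programme and the response to loss of the nerve.

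The samples were first checked against their labels. Between 38.7% and 48.6% of the probes stood well above background, depending on the array, and all 9 member probes did so in both channels of all 8 arrays. The brighter Eif6 probe had log2 ratios of Eif6+/- over WT of -0.97, -1.15, -0.89 and -1.06 on gastrocnemius pairs 1 to 4, and of -1.22, -1.03, -0.95 and -0.80 on TA pairs 1 to 4. All 8 lie near the value that loss of 1 of 2 copies gives, with means of -1.02 in gastrocnemius (fold 0.494, limma adjusted p 0.0241, lower on 4 of 4 arrays) and -0.999 in TA (adjusted p 0.0109, lower on 4 of 4 arrays). In gastrocnemius the mean was -1.06 without pair 3 (adjusted p 0.122) and -1.004 without pair 4 (adjusted p 0.157), with adjusted p from 0 to 0.157 over all alternatives. Whether the Eif6 probes lie in the altered part of the allele is not given in the files.

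The labelled muscles were checked by fibre markers, all of which stood well above background. The slow fibre genes Myl2, Myh7, Tnnt1 and Tnnc1 were higher in gastrocnemius than in TA, with log2 differences of 4.59, 4.02, 2.38 and 2.12 among WT samples. Gastrocnemius pair 1 stands apart: its summed slow fibre intensity was 7146 in the WT sample and 80227 in the Eif6+/- sample, a log2 ratio of 3.49, while pairs 2 to 4 gave -0.90, -0.11 and -0.22. Values without pair 1, or the ratios by pair, are therefore given for the members and the slow fibre genes where they change a statement. Fewer cells of a type and less RNA per cell cannot be told apart in bulk muscle.

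A gene is called changed here when limma gives an adjusted p below 0.1, taken over all probes tested in that muscle. In gastrocnemius 1939 of 12609 genes were called (15.4%), 1242 higher in Eif6+/- (9.85%) and 697 lower (5.53%). Of the 7 members, 3 were called higher (Hdac7, Hdac9 and Mef2a) and 1 lower (Mef2d). In TA 2014 of 12381 genes were called (16.3%), 1112 higher (8.98%) and 902 lower (7.29%), and the members called were again Hdac7, Hdac9 and Mef2a higher and Mef2d lower. Hdac4, Hdac5 and Mef2c passed the test in neither muscle. The median log2 ratio over the 7 members was -0.0039 in gastrocnemius and 0.02 in TA, beside 0.02 over all genes tested in each muscle.

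These counts depend on single arrays. Without gastrocnemius pair 3 or without gastrocnemius pair 4 limma called 0 genes, members included, although 2443 and 2679 genes had an unadjusted p below 0.05. Without gastrocnemius pair 2 it called 1336 genes and 2 members, Hdac7 and Mef2a. Without TA pair 1 it called 68 genes and 0 members (2226 genes at an unadjusted p below 0.05), without TA pair 2 it called 543 genes and 2 members (Hdac7 and Mef2a), and without TA pair 3 it called 1186 genes and 1 member (Mef2a). SAM, the test named in the methods, was run on all 4 pairs alone. It called more genes than limma, 3195 in gastrocnemius and 2613 in TA, and 4 members in each muscle.

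**Figure D1:**
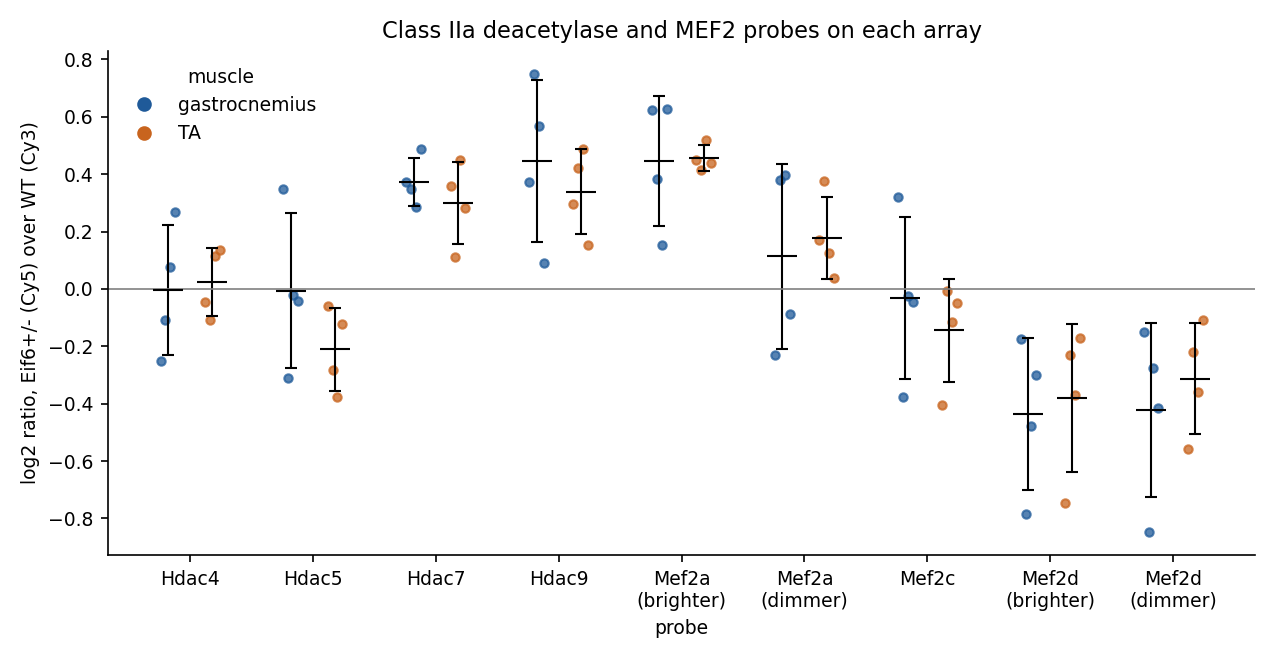
Log2 ratio of Eif6+/- over WT for the 9 member probes, each point 1 array (gastrocnemius blue, TA orange), with the mean and standard deviation as bars. Hdac7, Hdac9 and the brighter Mef2a probe lie above 0 on all 8 arrays (means 0.30 to 0.46) and both Mef2d probes lie below 0 on all 8 (means -0.43 to -0.31), while Hdac4, Hdac5 and Mef2c straddle 0 in gastrocnemius.

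The figure of the ratios by array shows the deacetylases first. Hdac4 represses MEF2 in muscle that has lost its nerve supply, and its log2 ratios were -0.25, -0.11, 0.07 and 0.27 on gastrocnemius pairs 1 to 4 and -0.05, -0.11, 0.12 and 0.14 on TA pairs 1 to 4. Pairs 1 and 2 lie below 0 and pairs 3 and 4 above it in both muscles, and the genotypes overlap, with WT levels of 8.25 to 8.99 and Eif6+/- levels of 8.51 to 8.78 (log2 intensity) in gastrocnemius and 8.55 to 8.97 and 8.66 to 8.92 in TA. The mean was -0.0039 in gastrocnemius (95% interval -0.24 to 0.23, adjusted p 0.985, lower on 2 of 4 arrays) and 0.02 in TA (interval -0.14 to 0.19, adjusted p 0.859, higher on 2 of 4 arrays). Its sign turns with single arrays: it ran from -0.09 to 0.08 in gastrocnemius and from -0.01 to 0.07 in TA when each array was left out in turn, and was -0.0033 in TA by Agilent's own processed ratio (adjusted p 0.538 to 0.985 over the TA alternatives). Its size moved as well, to -0.09 in gastrocnemius by Agilent's ratio and to 0.05 in TA with loess alone.

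Hdac5 is the member best known as a substrate of AMPK and of the calcium-dependent kinases in exercised muscle. Its log2 ratios were 0.35, -0.31, -0.02 and -0.04 on gastrocnemius pairs 1 to 4, and -0.06, -0.28, -0.38 and -0.12 on TA pairs 1 to 4. Gastrocnemius pair 1 alone is clearly above 0, whereas all TA pairs lie below it, and the levels of the genotypes overlap in both muscles (TA: WT 11.74 to 11.88, Eif6+/- 11.36 to 11.82). In gastrocnemius the mean was -0.0058 (95% interval -0.26 to 0.25, adjusted p 0.980, lower on 3 of 4 arrays), and it was -0.12 without pair 1 and 0.10 without pair 2. The gastrocnemius mean is also above 0 by Agilent's processed ratio (0.05) and with loess within arrays alone (0.0041). The TA mean of -0.21 (interval -0.39 to -0.03, lower on 4 of 4 arrays) had an adjusted p of 0.128 and so failed the test, with 0.105 to 0.370 over the alternatives.

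Hdac7 is the class IIa deacetylase best known from endothelium and developing T cells. On gastrocnemius pairs 1 to 4 its log2 ratios were 0.37, 0.35, 0.28 and 0.49, and on TA pairs 1 to 4 they were 0.36, 0.11, 0.45 and 0.28. Every array is above 0, and the genotypes do not overlap in either muscle: WT levels were 9.34 to 9.64 in gastrocnemius and 9.38 to 9.59 in TA, Eif6+/- levels 9.74 to 10.02 and 9.70 to 9.97. The share of all genes whose genotypes do not overlap was not counted. Nothing particular to a member is therefore read from this, here or below. Hdac7 rose by 0.37 in gastrocnemius (SE 0.0724, fold 1.295, adjusted p 0.0410, higher on 4 of 4 arrays) and by 0.30 in TA (SE 0.0774, fold 1.23, adjusted p 0.0576, higher on 4 of 4 arrays).

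The Hdac7 calls end when some arrays are left out. In gastrocnemius the mean was 0.40 without pair 3 (adjusted p 0.131) and 0.34 without pair 4 (0.173), with 0.0144 to 0.173 over all alternatives. In TA it was 0.28 without pair 1 (0.227) and 0.25 without pair 3 (0.148). Agilent's processed ratio (0.36, adjusted p 0.108) and a background offset of 0 (0.32, adjusted p 0.106) also end the TA call, and the range was 0.0443 to 0.227. The direction was upward in all of these.

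Because Hdac7 is known from endothelium, the endothelial markers are given beside it. Of the 7 endothelial genes, 2 were called in gastrocnemius, Cldn5 (-0.63) and Tie1 (-0.54), and 4 in TA, Cldn5 (-0.67), Tie1 (-0.49), Pecam1 (-0.32) and Emcn (-0.28), all lower. Their summed intensity on gastrocnemius pairs 1 to 4 was 3438, 3581, 3974 and 3556 in Eif6+/- and 4040, 4933, 4054 and 4305 in WT. On TA pairs 1 to 4 it was 3893, 4212, 3567 and 4171 in Eif6+/- and 5098, 4889, 3866 and 4569 in WT. The sum is lower in Eif6+/- on all 8 arrays, the opposite direction to Hdac7. Kdr gives the strongest signal in the sum, and a dimmer Kdr probe was called lower in TA (-0.29, lower on 4 of 4 arrays) but had a mean of 0.12 in gastrocnemius (lower on 2 of 4 arrays). All 7 genes stood well above background in every channel, and the part of this cell type in the Hdac7 values was not tested. In gastrocnemius Cldn5 and Tie1 missed the threshold without pair 3 (-0.70 and -0.56) and without pair 4 (-0.72 and -0.51). In TA all 4 missed it without pair 1 (Cldn5 -0.62, Tie1 -0.39, Pecam1 -0.23, Emcn -0.27), and Pecam1 and Emcn did so without pair 2 (-0.34 and -0.31) and without pair 4 (-0.31 and -0.21). Other processing ended the TA calls of Pecam1 and Emcn under 5 of 10 alternatives each, and those of Cldn5 and Tie1 under 0 of 10.

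Hdac9 is known as a target of MEF2 as well as its repressor, and responds to the nerve in adult muscle. Its log2 ratios were 0.37, 0.75, 0.57 and 0.09 on gastrocnemius pairs 1 to 4, and 0.30, 0.42, 0.49 and 0.15 on TA pairs 1 to 4. Pair 4 is the lowest in both muscles, yet every array is above 0 and the genotypes do not overlap, with WT levels of 6.95 to 7.37 and Eif6+/- levels of 7.46 to 7.70 in gastrocnemius and 7.21 to 7.48 against 7.51 to 7.90 in TA. Hdac9 rose by 0.45 in gastrocnemius (SE 0.113, fold 1.36, adjusted p 0.0650, higher on 4 of 4 arrays) and by 0.34 in TA (SE 0.0784, fold 1.26, adjusted p 0.0449, higher on 4 of 4 arrays).

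Leaving out arrays ends the Hdac9 calls more often than those of Hdac7. In gastrocnemius the mean was 0.34 without pair 2 (adjusted p 0.133), 0.40 without pair 3 (0.222) and 0.56 without pair 4 (0.157). In TA it was 0.35 without pair 1 (0.183), 0.31 without pair 2 (0.138) and 0.29 without pair 3 (0.115). The size of this ratio moved with the processing: the gastrocnemius mean was 0.71 by Agilent's processed ratio (adjusted p 0.119) and 0.68 with an offset of 0 (0.0713), and 0.50 with no background correction. The Hdac9 probe is dim: its raw WT signal was 83 to 116 in gastrocnemius, beside array medians of 47.5 to 55 in that channel. Agilent's ratio ended the TA call too (0.48, 0.102). Adjusted p ran from 0.0316 to 0.222 over the gastrocnemius alternatives and from 0.0332 to 0.183 over those of TA.

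Since class IIa deacetylases act through MEF2, the promoters of the members were searched for the core MEF2 letters. The search took TAAAAATA and TATTTATA on both strands, which read TATTTTTA and TATAAATA when reversed and complemented, and the last of these shares letters with a TATA box. RefSeq promoter windows of 300 bases around each annotated start (build GRCm38.p6) were found for all 7 genes, 13 windows in all, and 3 of them hold the letters, in Hdac5, Hdac9 and Mef2a. Over all 32851 windows 1411 hold them (4.30%). The 3 windows with the letters in capitals are printed below because they include 2 of the genes that rose in both muscles and 1, Hdac5, that did not pass the test. They are Hdac5 (chr11:102230123-102230422, minus strand, capitals at 232 to 239), Hdac9 (chr12:34528840-34529139, minus strand, capitals at 86 to 93) and Mef2a (chr7:67372809-67373108, minus strand, capitals at 250 to 257), with positions counted from 1 at the 5′ end.
Hdac5: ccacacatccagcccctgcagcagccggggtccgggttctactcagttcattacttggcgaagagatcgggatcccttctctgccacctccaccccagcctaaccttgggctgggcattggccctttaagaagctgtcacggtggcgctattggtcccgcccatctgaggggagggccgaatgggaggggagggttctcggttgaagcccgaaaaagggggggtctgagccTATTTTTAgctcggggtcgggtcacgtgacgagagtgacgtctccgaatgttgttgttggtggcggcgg
Hdac9: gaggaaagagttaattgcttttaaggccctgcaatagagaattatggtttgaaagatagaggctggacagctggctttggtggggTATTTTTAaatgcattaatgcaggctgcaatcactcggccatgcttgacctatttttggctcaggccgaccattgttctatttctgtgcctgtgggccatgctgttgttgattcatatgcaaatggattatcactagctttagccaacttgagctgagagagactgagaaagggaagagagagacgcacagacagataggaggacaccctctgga
Mef2a: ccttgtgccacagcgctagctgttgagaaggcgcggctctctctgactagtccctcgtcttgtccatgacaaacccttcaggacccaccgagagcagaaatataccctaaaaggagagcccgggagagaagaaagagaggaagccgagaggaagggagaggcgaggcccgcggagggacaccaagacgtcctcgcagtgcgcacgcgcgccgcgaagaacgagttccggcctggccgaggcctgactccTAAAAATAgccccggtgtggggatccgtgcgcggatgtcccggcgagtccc

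A match describes letters and not binding. The windows of Hdac4 (1), Hdac7 (4), Mef2c (3) and Mef2d (1) and the other window of Hdac9 do not hold these letters, so neither the genes that rose nor those that failed the test share them as a group.

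**Figure D2:**
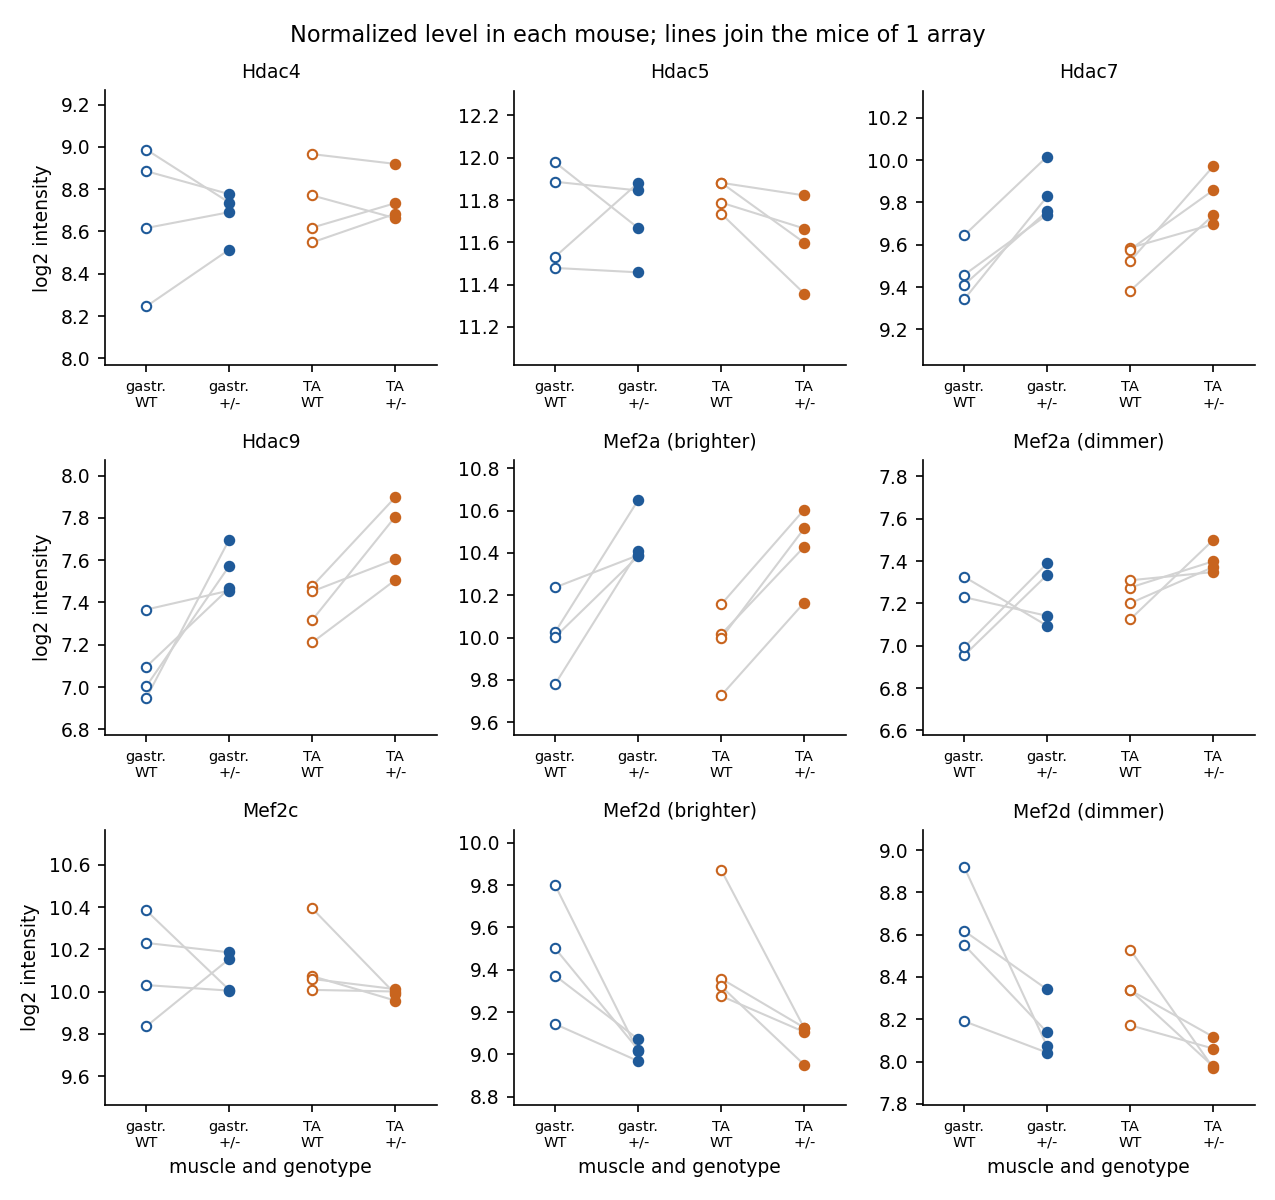
Normalized log2 intensity of the 9 member probes in each sample, open points WT and filled points Eif6+/-, by muscle, with a line joining the 2 samples of an array. The genotypes do not overlap for Hdac7, Hdac9, the brighter Mef2a probe and the brighter Mef2d probe in either muscle. The share of all genes without overlap was not counted. For the brighter Mef2d probe the Eif6+/- samples lie close together (8.97 to 9.07 in gastrocnemius) below a wide WT spread (9.14 to 9.80).

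The figure of the levels in each sample carries over to the MEF2 factors. Mef2a is the MEF2 factor known for the adult fibre and for muscle repair. Its brighter probe had log2 ratios of 0.62, 0.38, 0.15 and 0.63 on gastrocnemius pairs 1 to 4, and 0.45, 0.41, 0.52 and 0.44 on TA pairs 1 to 4. Gastrocnemius pair 3 is the lowest of the 8, the TA pairs lie close together, and the genotypes do not overlap (gastrocnemius WT 9.78 to 10.24, Eif6+/- 10.38 to 10.65; TA WT 9.73 to 10.16, Eif6+/- 10.17 to 10.61). Mef2a rose by 0.45 in gastrocnemius (SE 0.0991, fold 1.36, adjusted p 0.0512, higher on 4 of 4 arrays) and by 0.46 in TA (SE 0.0663, fold 1.37, adjusted p 0.0153, higher on 4 of 4 arrays).

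For the brighter Mef2a probe 3 single arrays matter. The gastrocnemius mean was 0.54 without pair 3 (adjusted p 0.122) and 0.39 without pair 4 (0.193), and the TA mean was 0.46 without pair 1 (0.111). Adjusted p ran from 0.0239 to 0.193 over the gastrocnemius alternatives and from 0.00690 to 0.111 over those of TA.

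The dimmer Mef2a probe does not pass the test. Its log2 ratios were -0.23, 0.38, 0.40 and -0.09 on gastrocnemius pairs 1 to 4, and 0.17, 0.38, 0.12 and 0.04 on TA pairs 1 to 4. Gastrocnemius pairs 1 and 4, the highest on the brighter probe, are below 0 here, while TA is above 0 throughout, and the genotypes overlap in gastrocnemius (WT 6.95 to 7.33, Eif6+/- 7.09 to 7.39) but not in TA (WT 7.12 to 7.31, Eif6+/- 7.35 to 7.50). The mean was 0.11 in gastrocnemius (adjusted p 0.592, higher on 2 of 4 arrays) and 0.18 in TA (adjusted p 0.180, higher on 4 of 4 arrays). Single arrays move these means: in gastrocnemius it was 0.23 without pair 1, 0.03 without pair 2, 0.02 without pair 3 and 0.18 without pair 4, and in TA it was 0.11 without pair 2. Agilent's ratio gave 0.08 and 0.30 in the muscles in that order, and an offset of 0 gave 0.18 and 0.27. Like that of Hdac9 this probe is dim, with a raw WT signal of 84 to 111 in gastrocnemius. The Mef2a result is thus that of 1 probe of 2, and the files do not hold probe sequences that would tell which transcripts each one reads.

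Mef2c is needed for the sarcomere of growing muscle, and its log2 ratios were 0.32, -0.38, -0.03 and -0.04 on gastrocnemius pairs 1 to 4 and -0.40, -0.0077, -0.12 and -0.05 on TA pairs 1 to 4. Gastrocnemius pairs 1 and 2 are far apart with opposite signs, and TA pair 1 lies well below the other TA pairs. The genotypes overlap in gastrocnemius (WT 9.84 to 10.38, Eif6+/- 10.00 to 10.19), while in TA the Eif6+/- levels (9.96 to 10.01) reach the lower edge of the WT levels (10.01 to 10.39). The mean was -0.03 in gastrocnemius (95% interval -0.30 to 0.23, adjusted p 0.884, lower on 3 of 4 arrays) and -0.14 in TA (interval -0.34 to 0.05, adjusted p 0.299, lower on 4 of 4 arrays). The gastrocnemius mean was -0.15 without pair 1, turned to 0.08 without pair 2, and was -0.02 with loess alone or Aquantile. The TA mean shrank to -0.06 without pair 1 and to -0.09 by Agilent's ratio.

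Mef2d is the MEF2 factor whose muscle splice form is not phosphorylated by protein kinase A. Its brighter probe had log2 ratios of -0.18, -0.79, -0.48 and -0.30 on gastrocnemius pairs 1 to 4, and -0.75, -0.23, -0.37 and -0.17 on TA pairs 1 to 4. Every array is below 0 with a wide spread, gastrocnemius pair 2 and TA pair 1 being the lowest, and the genotypes do not overlap (gastrocnemius WT 9.14 to 9.80, Eif6+/- 8.97 to 9.07; TA WT 9.28 to 9.87, Eif6+/- 8.95 to 9.13). Mef2d fell with a mean of -0.43 in gastrocnemius (SE 0.108, fold 0.740, adjusted p 0.0629, lower on 4 of 4 arrays) and -0.38 in TA (SE 0.1005, fold 0.768, adjusted p 0.0601, lower on 4 of 4 arrays).

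The dimmer Mef2d probe moved with the brighter. Its log2 ratios were -0.15, -0.85, -0.28 and -0.41 on gastrocnemius pairs 1 to 4, and -0.56, -0.22, -0.36 and -0.11 on TA pairs 1 to 4. Again gastrocnemius pair 2 and TA pair 1 are the lowest, and the genotypes overlap in gastrocnemius (WT 8.19 to 8.92, Eif6+/- 8.04 to 8.34) but not in TA (WT 8.17 to 8.53, Eif6+/- 7.97 to 8.12). It fell with a mean of -0.42 in gastrocnemius (adjusted p 0.0801, lower on 4 of 4 arrays) and -0.31 in TA (adjusted p 0.0670, lower on 4 of 4 arrays).

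Most single arrays end the Mef2d calls, with the direction kept. In gastrocnemius the brighter probe had -0.32 without pair 2 (adjusted p 0.114), -0.42 without pair 3 (0.204) and -0.48 without pair 4 (0.177), and Agilent's processed ratio gave -0.47 (0.102; range over all alternatives 0.0309 to 0.204). In TA it had -0.26 without pair 1 (0.219), -0.43 without pair 2 (0.117) and -0.38 without pair 3 (0.116). Agilent's ratio (-0.41, 0.132) and an offset of 0 (-0.41, 0.105) end the TA call as well, the range being 0.0507 to 0.219.

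The dimmer Mef2d probe depends on the same arrays. In gastrocnemius it had -0.28 without pair 2 (adjusted p 0.136), -0.47 without pair 3 (0.193), -0.42 without pair 4 (0.228) and -0.55 by Agilent's ratio (0.111), with a range of 0.0405 to 0.228. In TA it had -0.23 without pair 1 (0.262), -0.34 without pair 2 (0.138) and -0.30 without pair 3 (0.146). Agilent's ratio (-0.46, 0.111) and an offset of 0 (-0.38, 0.106) end that call too, with a range of 0.0553 to 0.262.

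Mef2a and Mef2d, read by their brighter probes, part on every array. The log2 ratio of Mef2a minus that of Mef2d was 0.80, 1.17, 0.63 and 0.93 on gastrocnemius pairs 1 to 4, and 1.20, 0.65, 0.89 and 0.61 on TA pairs 1 to 4. The gap does not depend on how an array is centred, since both ratios come from the same array, but it does not tell which of the 2 moved. Only the brighter Mef2a probe shows the gap on every array. On gastrocnemius pair 1 the dimmer Mef2a probe (-0.23) lies below both Mef2d probes (-0.18 and -0.15), while on every other array it lies above both. The median log2 ratio of the 3 MEF2 factors was -0.03 in gastrocnemius and -0.14 in TA, and that of the 4 deacetylases was 0.18 and 0.16, beside 0.02 over all genes in each muscle.

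The genotype ratios were then compared between the muscles. For this difference limma called 0 of 12200 genes (0%), with 995 genes at an unadjusted p below 0.05, and SAM was not run on it. The difference of gastrocnemius minus TA was 0.20 for Hdac5 (95% interval -0.10 to 0.51, adjusted p 0.722), the member with the lowest adjusted p. For the members called in both muscles it was 0.07 for Hdac7 (interval -0.15 to 0.30), 0.11 for Hdac9 (-0.21 to 0.42), -0.0088 for Mef2a (-0.27 to 0.25) and -0.05 for Mef2d (-0.41 to 0.30). The intervals are wide, and those of Hdac9 and Mef2d reach past the size of the TA ratio itself. Leaving out single arrays turned the sign of the difference for Hdac4 (-0.12 to 0.05), Mef2a (-0.07 to 0.09), Mef2c (-0.0049 to 0.23) and Mef2d (-0.18 to 0.06), and no member was called in any of these. With each array left out the others kept their sign but not their size: Hdac5 ran from 0.09 to 0.31, Hdac7 from 0.01 to 0.12 and Hdac9 from 0.0047 (without gastrocnemius pair 2) to 0.22 (without gastrocnemius pair 4). Agilent's ratio (0.22), an offset of 0 (0.20) and loess alone (0.06) moved that of Hdac9 as well. In all genes, Pcnx2 was called by Agilent's processed ratio and Lrtm1 without a filter on dim probes, both named after their values were seen.

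Levels between the muscles were also compared within each genotype. Among WT samples 2704 of 11841 genes (22.8%) were called and among Eif6+/- samples 2107 of 12616 (16.7%), with no member called in either by limma (1 at an unadjusted p below 0.05 in WT, Hdac9, and 0 in Eif6+/-, with SAM not run). The count among WT samples was 1674 without gastrocnemius pair 3 and 1774, 1702 and 1724 without TA pairs 2, 3 and 4, and that among Eif6+/- samples was 1063, 1225 and 1194 without gastrocnemius pairs 1, 2 and 4 and 976 and 1089 without TA pairs 1 and 2. The WT level of Hdac9 was lower in gastrocnemius by a log2 difference of -0.26 (adjusted p 0.136, with 4 samples per muscle whose ranges overlap), and it was -0.35 without gastrocnemius pair 4, where it passed the test (adjusted p 0.0511; range over all alternatives 0.0511 to 0.282). With an offset of 0 it was -0.41 and missed the threshold. Its difference among Eif6+/- samples was -0.15 (adjusted p 0.341). The dimmer Mef2d probe had a WT difference of 0.23 (adjusted p 0.325) that became 0.35 without gastrocnemius pair 1 (adjusted p 0.0929; range 0.0929 to 0.595). The other WT differences lay between -0.10 and 0.04, all smaller than the slow fibre differences given above.

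For each member the gene most like it over the 8 arrays was found by the root mean square difference of log2 ratio, among 12199 genes tested in both muscles. It was 2310009B15Rik for Hdac4 (0.0859, beside a median of 0.278 over all genes), Art1 for Hdac5 (0.0697; 0.331) and Mark1 for Hdac7 (0.0713; 0.391). It was D11Wsu47e for Hdac9 (0.0652; 0.471), Ehmt1 for Mef2a (0.0601; 0.499), Pdha1 for Mef2c (0.0608; 0.324) and Mus81 for Mef2d (0.0671; 0.531). No member is the nearest gene of another, and nothing is drawn here about function from these likenesses.

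**Figure D3:**
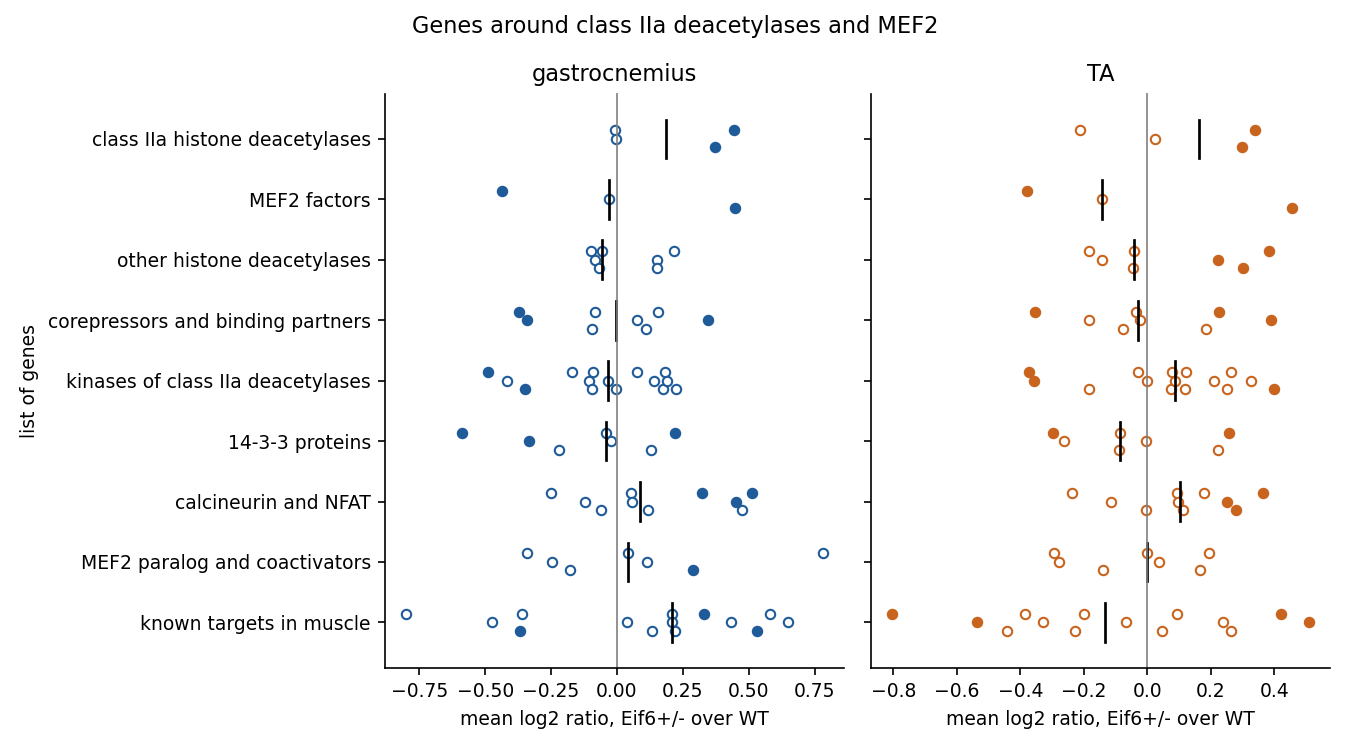
Mean log2 ratio of Eif6+/- over WT for each gene of 9 lists, by muscle, each point 1 gene read by its brightest probe, filled where called, with a line at the list's median. In gastrocnemius 4 of the 9 lists hold called genes on both sides of 0, and the deacetylases of class IIa have a median of 0.18 in gastrocnemius and 0.16 in TA.

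The figure of the lists places the members among the rest of the pathway. Of 68 other pathway genes tested, 8 were called higher and 7 lower in gastrocnemius (median log2 ratio 0.05) and 12 higher and 6 lower in TA (median 0.02), beside a median of 0.02 over all genes and shares called of 15.4% and 16.3%. Several list counts below lie near those shares, and nothing particular to a list is read from them. With the marker lists, 20 genes outside the members were called in gastrocnemius and 27 in TA. Of these, 16, 11, 0 and 0 still passed without gastrocnemius pairs 1, 2, 3 and 4, and 1 (Myh4), 7, 18 and 20 without TA pairs 1, 2, 3 and 4, with no change of sign. Other processing ended the call in 30 of 200 values in gastrocnemius and 53 of 270 in TA, so the number of the 10 alternatives that end a call is given with each list where it is 3 or more. Some dimmer probes of list genes are named where they are called or part from the brightest probe of a called gene. They were chosen after their values were seen, and leaving out arrays was not run on them.

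The enzymes and corepressors that class IIa proteins work with come first. Of 7 other histone deacetylases, 0 were called in gastrocnemius by limma (median -0.06; 1 at an unadjusted p below 0.05, 0 by SAM) and 3 in TA, all higher (median -0.04): Hdac1 (0.38), Hdac3 (0.30) and Hdac6 (0.22), although 2 other Hdac1 probes gave -0.10 and -0.14, and a dimmer Hdac10 probe was called lower (-0.30, lower on 4 of 4 arrays). Hdac3 is the enzyme that gives class IIa complexes their activity, and its TA ratios were 0.40, 0.31, 0.14 and 0.36. Of 8 corepressors and partners, 1 was called higher and 2 lower in gastrocnemius (median -0.0032) and 2 higher and 1 lower in TA (median -0.03). Ankra2, a protein that binds class IIa deacetylases, rose in both (0.35 and 0.39), while Ncor1 was called lower (-0.37 and -0.35, with TA pair 4 above 0 at 0.10) on a probe that 2 others do not follow (0.01 and 0.08 in gastrocnemius). Cabin1 fell in gastrocnemius (-0.34) and Ctbp1 rose in TA (0.23). In gastrocnemius these calls ended without pair 3 (Ankra2 0.40, Ncor1 -0.35, Cabin1 -0.34) and pair 4 (0.31, -0.37, -0.35), and those of Ncor1 and Cabin1 without pair 2 (-0.30, -0.29). In TA they ended without pair 1 (Hdac1 0.36, Hdac3 0.27, Hdac6 0.21, Ankra2 0.33, Ncor1 -0.26, Ctbp1 0.22), and all but that of Hdac1 without pair 2 (0.30, 0.25, 0.38, -0.31 and 0.22 in the same order). Hdac6, Ncor1 and Ctbp1 also missed without TA pair 3 (0.23, -0.35, 0.24), and Hdac6 and Ctbp1 without TA pair 4 (0.18, 0.21). Other processing ended the TA calls of Ncor1 under 6 of 10 alternatives, Ctbp1 under 5 and Hdac6 under 3.

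The kinases and 14-3-3 proteins set where the deacetylases are. Of 15 kinases tested by their brightest probes, 2 were called in gastrocnemius, both lower (median of the list -0.03), namely Camk1 (-0.49, with pair 1 above 0 at 0.05) and Prkaa2 (-0.35). In TA 1 was higher, Sik2 (0.40), and 2 lower, Camk1 (-0.37) and Mark2 (-0.36), with a median of 0.09. Mark2 was not called in gastrocnemius, where its ratios on pairs 1 to 4 were 0.13, -0.87, -0.33 and -0.60. Some dimmer probes were called too: a Sik3 probe was higher in both muscles (0.39 and 0.34, on 4 of 4 arrays each) while another had -0.14 and -0.15 (lower on 3 of 4 arrays each). A Camk2d probe was lower in gastrocnemius (-0.26), and a Camk2b probe was lower in TA (-0.35) where the brightest had 0.07. Of 7 14-3-3 genes 1 was higher and 2 lower in gastrocnemius (median -0.04) and 1 higher and 1 lower in TA (median -0.09): Ywhah was higher (0.22 and 0.26) and Ywhab lower (-0.59 and -0.30) in both, and Ywhaq was lower in gastrocnemius (-0.33), where its 4 other probes gave 0.03, -0.03, -0.11 and -0.11. A dimmer Ywhaz probe was called lower in gastrocnemius (-0.37). In gastrocnemius these calls ended without pair 3 (Camk1 -0.48, Prkaa2 -0.39, Ywhab -0.48, Ywhah 0.23, Ywhaq -0.24) and pair 4 (-0.47, -0.33, -0.63, 0.23, -0.37 in the same order). Camk1, Prkaa2, Ywhah and Ywhaq also missed without gastrocnemius pair 2 (-0.34, -0.28, 0.21, -0.31), and Ywhah without pair 1 (0.21). In TA the calls ended without pair 1 (Sik2 0.43, Camk1 -0.23, Mark2 -0.24, Ywhab -0.26, Ywhah 0.26) and pair 2 (0.38, -0.37, -0.41, -0.28, 0.29), for Camk1 and Ywhah without pair 3 (-0.40, 0.22), and for Ywhab without pair 4 (-0.27). Other processing ended the gastrocnemius calls of Ywhaq under 6 of 10 alternatives, Ywhah under 5 and Camk1 under 3, and the TA call of Camk1 under 5. The Mark2 mean was -0.56 by Agilent's ratio, which also ended its call.

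Calcineurin and NFAT signal to the same fibre genes as MEF2. Of their 10 genes 3 were called in each muscle, all higher (medians 0.09 and 0.10): Nfatc3 (0.51 and 0.28) and Ppp3cc (0.45 and 0.36) in both, Rcan1 in gastrocnemius (0.32) and Ppp3r1 in TA (0.25). A further Nfatc3 probe gave -0.03 and -0.07. In each muscle 4 of 7 coactivators and paralogs tested had an unadjusted p below 0.05, and SAM called 4 in gastrocnemius and 2 in TA. Limma called Ncoa2 in gastrocnemius (0.29) and 0 in TA (medians of the list 0.04 and -0.00095). In gastrocnemius these calls ended without pair 3 (Nfatc3 0.52, Ppp3cc 0.46, Rcan1 0.27, Ncoa2 0.24) and pair 4 (0.49, 0.36, 0.31, 0.32), those of Ppp3cc, Rcan1 and Ncoa2 without pair 1 (0.40, 0.28, 0.26), and that of Ncoa2 without pair 2 (0.33). In TA they ended without pair 1 (Nfatc3 0.23, Ppp3cc 0.32, Ppp3r1 0.23) and pair 2 (0.25, 0.35, 0.25), for Ppp3r1 without pair 3 (0.24), and for Nfatc3 without pair 4 (0.28).

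Known MEF2 targets close the pathway. Of 14 tested, 2 were higher and 1 lower in gastrocnemius (median 0.21) and 2 higher and 2 lower in TA (median -0.13). Nr4a1, an early target, was higher in both (0.53 and 0.51), but its TA ratio was above 0 on 3 of 4 arrays, and other processing ended its TA call under 8 of 10 alternatives and its gastrocnemius call under 3. Ppargc1a, which drives the oxidative programme, rose in gastrocnemius with ratios of 0.30, 0.20, 0.46 and 0.37 (mean 0.33) on a probe that its other probe does not follow (0.08, higher on 2 of 4 arrays), and in TA its mean was -0.20, which failed the test. Ckm fell in gastrocnemius (-0.37), Myog was called higher in TA (0.42, with pair 4 below 0 at -0.08), and the slow or oxidative fibre genes Tnni1 (-0.80) and Mb (-0.54) fell in TA. Neither Tnni1 nor Mb was called in gastrocnemius, where pair 1 stood apart for both. Their log2 ratios on gastrocnemius pairs 1 to 4 were 1.14, -1.72, -1.71 and -0.91 for Tnni1, and 1.98, -0.26, 0.38 and 0.22 for Mb. The Ckm mean was -0.18 with loess alone or Aquantile and -0.15 in the deposited ratios, where it missed the threshold, as it did under 5 of 10 alternatives. Myog was 0.82 by Agilent's ratio and 0.65 with an offset of 0, and missed in both. Mb was -0.33 without TA pair 4, -0.34 with loess alone or Aquantile and -0.31 in the deposited ratios, passing in these. Tnni1 was -1.33 by Agilent's ratio and passed. In gastrocnemius the calls ended without pair 3 (Ppargc1a 0.29, Ckm -0.33, Nr4a1 0.64) and pair 4 (0.32, -0.36, 0.56), and those of Ckm and Nr4a1 without pair 2 (-0.33, 0.59); Nr4a1 was 0.33 without pair 1 and passed. In TA they ended without pair 1 (Tnni1 -0.77, Mb -0.69, Myog 0.45, Nr4a1 0.32), those of Mb, Myog and Nr4a1 without pair 2 (-0.57, 0.30, 0.47), those of Mb and Myog without pair 3 (-0.56, 0.34), and that of Nr4a1 without pair 4 (0.50).

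Other cell and fibre markers moved too, and their part in the member values was not tested. In TA 2 of 4 slow fibre genes were called, both lower, Tnnt1 (-0.90) and Tnnc1 (-0.41), and the summed log2 ratio ran from -1.41 to 0.02 over the arrays; in gastrocnemius limma and SAM called 0 of the 4, and 0 had an unadjusted p below 0.05. That count rests on gastrocnemius pair 1: the log2 ratios of pairs 1 to 4 were 1.97, -1.62, -0.57 and -0.75 for Tnnc1, 2.71, -1.28, -0.60 and -0.34 for Tnnt1, 5.01, -1.81, -0.26 and -0.34 for Myh7, and 3.53, -0.28, 0.54 and 0.0054 for Myl2. Without pair 1 limma called 2 of the 4, Tnnc1 (-0.98, lower on 3 of 3 arrays, adjusted p 0.0456; 0.0456 to 0.961 with each array left out) and Tnnt1 (-0.74, lower on 3 of 3 arrays, adjusted p 0.0618; 0.0618 to 0.866), the same genes as in TA. Tnnc1 in TA was -0.72 by Agilent's ratio and -0.65 with an offset of 0, and passed. Of 5 fibre genes read by their brightest probes, SAM called 3 in gastrocnemius and 1 in TA. Limma called 1 in each muscle, both higher, namely Myh1 in gastrocnemius (0.96) and Myh4 in TA (0.80). Pair 1 stands apart in gastrocnemius here too. The log2 ratios of pairs 1 to 4 there were 1.87, 0.36, 0.81 and 0.80 for Myh1, and -0.15, 0.62, 0.54 and 0.41 for Myh4. Without pair 1 the Myh1 mean was 0.66 and passed (limma adjusted p 0.0407). Dimmer probes were called in TA on both sides of 0, Tnnt3 lower (-0.44, lower on 4 of 4 arrays) and Pvalb higher (0.50, higher on 4 of 4 arrays), where their brightest probes had -0.04 and -0.11 and failed the test. Smooth muscle genes were lower, Acta2 (-0.46) in gastrocnemius and Acta2 (-0.52) and Myh11 (-0.55) in TA, with Acta2 the stronger signal of the 2 and summed ratios of -0.88 to -0.29 and -0.76 to -0.20. Of 4 leukocyte genes tested in gastrocnemius Cd74 was called lower (-1.10), as was a dimmer Csf1r probe (-0.64, lower on 4 of 4 arrays) but not its other probes (-0.35 and -0.15, lower on 3 of 4 arrays each), and limma called 0 of 5 in TA (2 at an unadjusted p below 0.05, 2 by SAM). The summed leukocyte intensity was lower in Eif6+/- on all 4 gastrocnemius arrays (log2 ratios of pairs 1 to 4: -0.96, -0.04, -1.42 and -0.19) and on 2 of 4 TA arrays (0.22, -0.60, 0.04 and -0.12), with Csf1r the strongest signal in it. Of 3 fibroblast genes 0 were called in either muscle by limma or SAM, and 0 had an unadjusted p below 0.05. Their summed intensity nevertheless differed widely between single arrays. Its log2 ratios on pairs 1 to 4 were 0.10, 0.0050, -1.10 and 0.29 in gastrocnemius and 0.41, -0.79, 1.97 and 0.02 in TA. The gastrocnemius calls ended without pair 3 (Myh1 1.01, Acta2 -0.31, Cd74 -0.77) and pair 4 (1.01, -0.51, -1.26). In TA that of Myh4 held throughout, and the others ended without pair 1 (Tnnt1 -1.03, Tnnc1 -0.46, Acta2 -0.44, Myh11 -0.49), for Tnnc1 and Myh11 without pair 2 (-0.33, -0.59) and for Myh11 without pair 3 (-0.41).

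**Figure D4:**
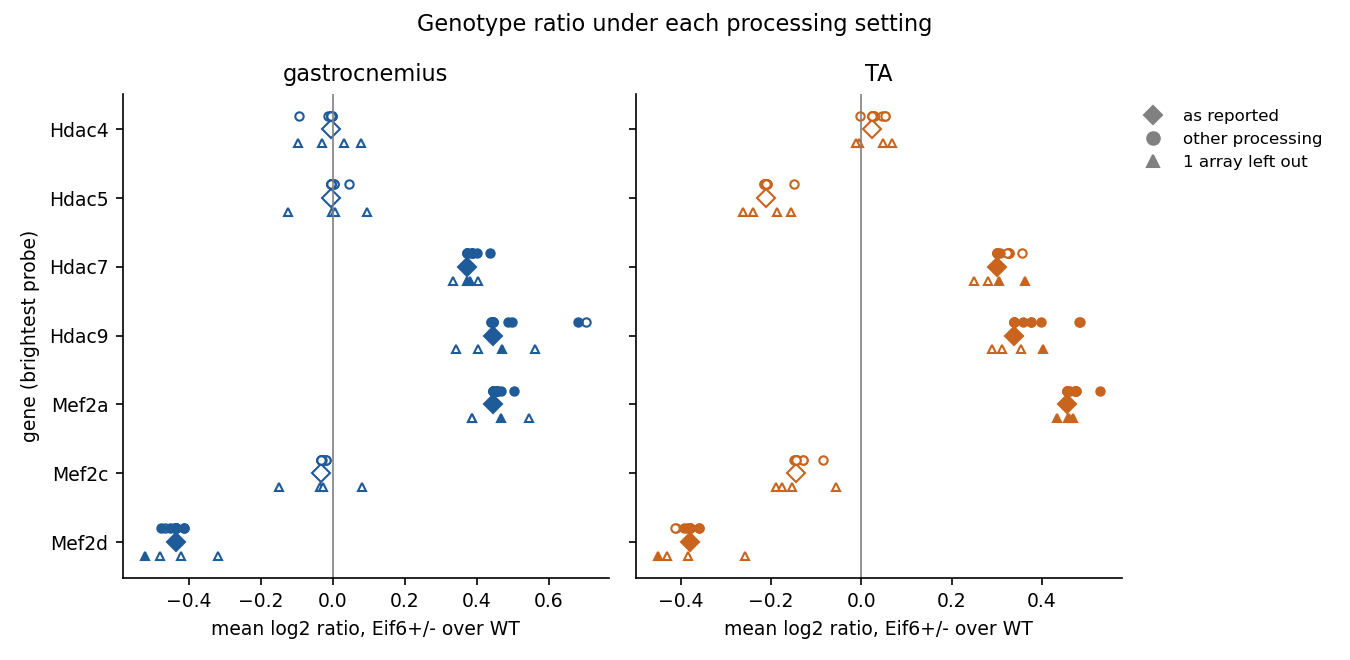
Mean log2 ratio of Eif6+/- over WT for the 7 members by their brightest probes under each way of processing, by muscle (diamond as reported, circle other processing, triangle 1 array left out), filled where the adjusted p is below 0.1. Hdac7, Hdac9 and Mef2a stay above 0 and Mef2d below 0 throughout, but many triangles are open, and Hdac9 in gastrocnemius runs from 0.34 to 0.71.

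The figure of the settings sums up the members. Hdac7, Hdac9 and Mef2a were higher and Mef2d lower in both muscles under every way of processing and with each array left out, while the threshold was missed under those named above. For Hdac4, Hdac5 and Mef2c the sign in gastrocnemius turned with single arrays. The ratios compare the dyes as well as the genotypes, on 4 pairs per muscle, and they measure RNA: where the deacetylases lie in the fibre, which governs what they do to MEF2, was not measured.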

How the data were processed

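RNA of gastrocnemius and TA was measured on 8 Agilent 2-colour arrays, 4 Eif6+/- and WT pairs per muscle. Per the file headers the deposited scanner files hold intensity values from Feature Extraction (median spot and local background, no mean) and a processed ratio of Cy5 over Cy3 in log10. The deposited value table holds log2 ratios with column medians in pair order of 0.00257, 0.000831, -0.00441 and 0.00375 (gastrocnemius) and 0.00138, -0.000366, 0.00288 and 0.00212 (TA). Its ratios follow loess of uncorrected intensities (correlation 0.99994 to 0.99998 by array). The methods also name quantile normalization. A quantile step that leaves ratios unchanged, as Aquantile does, cannot be seen in these values.

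Of 62976 spots per array, control spots and the 233 to 318 spots marked as outliers were left out, and 0 spots were saturated. Background was corrected by normexp with an offset of 50, followed by loess within arrays and quantile normalization over 16 channels (limma 3.58.1, R 4.3.3, and data.table, version 1.17.8). Replicate spots were averaged per probe. Testing in a muscle took probes that each of the 4 arrays showed well above background in 1 channel or both (23802 probes in gastrocnemius, 23391 in TA), by moderated t tests with Benjamini-Hochberg adjustment over all probes and a threshold of 0.1, and the brightest probe stands for a gene. Python 3.11.15 and matplotlib 3.10.9 drew the figures and searched the promoters.

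Alternatives were loess alone, Aquantile, an offset of 0, no background correction, the Agilent ratio, the deposited ratios, other filters, outlier spots kept, SAM, the pair number as a block, counting any probe of a gene, and each array left out. The members and lists were chosen with earlier results of these data known. Named genes are the members with all probes, Eif6, the list genes called (the 12 with the smallest adjusted p where there are more, plus those a count of 5 or fewer refers to), and the nearest gene of each member. The steps were tested on simulated data.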

Additional observations from a re-analysis of the deposited data

Results flagged for a closer look

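Among 60 groups of 4 values for the member probes and Eif6 (ratios and levels by muscle and genotype), 4 held a sample far from the other 3, and chance gives about 1 in 20 groups. The level of the brighter Mef2a probe in the Eif6+/- sample of gastrocnemius pair 1 was 10.65, with the others at 10.38 to 10.41. The WT level of Mef2c in TA pair 1 was 10.39, with the others at 10.01 to 10.07. For the brighter Mef2d probe in TA, the Eif6+/- level of pair 3 was 8.95 beside 9.11 to 9.13, and the WT level of pair 1 was 9.87 beside 9.28 to 9.36. The Mef2d mean in TA is -0.26 without pair 1 and -0.38 without pair 3, and both miss the threshold.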

How the results depend on the processing

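For the 9 member probes, 84 of 90 gastrocnemius values and 82 of 90 TA values under other processing kept their direction and their side of the threshold. Of the rest, 3 and 7 missed the threshold and 3 and 1 turned sign. With 1 array left out, 18 of 36 and 22 of 36 kept both. The cause was not tested except where the alternative's construction shows it.

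Agilent's processed ratio called 1204 genes and 2 members in gastrocnemius and 844 genes and 1 member in TA, and 1 gene for the difference between muscles. Without a filter on dim probes 1 gene was called for that difference. An offset of 0 called 1215 genes and 2 members in TA. SAM called 3195 genes in gastrocnemius. The share of called genes that were higher in Eif6+/- moved too. In TA it was 55.2% as reported, 64.6% with loess alone or Aquantile and 62.6% with the deposited ratios. Without TA pair 1, where 68 genes were called, it was 77.9%. In gastrocnemius it was 64.1% as reported, 68.1% with loess alone or Aquantile, and 59.2% and 59.1% without pairs 1 and 2.

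Sign turned for Hdac5 in gastrocnemius (0.0041 with loess alone and with Aquantile, which share their ratios by construction, and 0.0461 by Agilent's ratio) and for Hdac4 in TA (-0.0033 by Agilent's ratio). The muscle difference of Eif6 turned too (0.0027 with loess alone and with Aquantile, 0.0038 with the deposited ratios).

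With each array left out in turn (fewer samples), genes called ran from 0 to 1765 in gastrocnemius and 68 to 2035 in TA, and members called from 0 to 4 in both. Genes called between muscles ran from 1674 to 2758 in WT and 976 to 2373 in Eif6+/-. Ranges that cross 0 were, in gastrocnemius, Hdac4 -0.0949 to 0.0784, Hdac5 -0.124 to 0.0956 and Mef2c -0.149 to 0.0827, and in TA Hdac4 -0.0128 to 0.0683. For the muscle difference they were Eif6 -0.0919 to 0.0476, Hdac4 -0.119 to 0.0541, Mef2a -0.0690 to 0.0893, Mef2c -0.00493 to 0.227, Mef2d -0.177 to 0.0620, dimmer Mef2a -0.157 to 0.0525 and dimmer Mef2d -0.200 to 0.0329. For WT levels between muscles they were Hdac4 -0.143 to 0.104, Mef2a -0.0450 to 0.115, Mef2c -0.101 to 0.0814 and Mef2d -0.118 to 0.135. For Eif6+/- levels they were Hdac7 -0.0399 to 0.0717 and Mef2a -0.0591 to 0.0875.

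With the pair number as a replicate block, 0 genes were called for the muscle difference by limma, 1935 for WT levels and 2298 for Eif6+/- levels. The ratios of same-numbered pairs of the muscles correlate at -0.12, -0.0050, -0.36 and 0.11, and the values reported use no block.

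Among the member calls, the gastrocnemius mean of Hdac9 moved by more than 1.5 times under other processing (0.71 by Agilent's ratio, 0.68 with an offset of 0). So did its difference between muscles and its WT level difference (-0.41 with an offset of 0), neither called. Of the members that failed the test, Hdac4, Hdac5 and Mef2c in gastrocnemius and Hdac4, Mef2c and the dimmer Mef2a probe in TA moved by more than that too, as did the dimmer Mef2a probe in gastrocnemius. Between 38.7% and 48.6% of probes stood well above background, depending on the array, which limits what dim probes can show.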

Other observations

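The spread among WT samples was wider than among Eif6+/- samples. The median standard deviation of log2 level over 12200 genes was 0.149 in WT and 0.106 in Eif6+/- in gastrocnemius, where 69.4% of genes spread more in WT, and 0.127 and 0.107 in TA (59.8%). The brighter Mef2d probe had 0.274 and 0.0423 in gastrocnemius and 0.278 and 0.0845 in TA. Genotype and dye cannot be told apart in these values.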
